A study of Mus musculus with 2 samples.

Results

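A set of 40 genes of DNA replication and S phase was followed in lung dendritic cells, in cells that carried transcripts of the division machinery (cycling cells) and in all other cells. The genes were taken by symbol from 31053 features, and each symbol was found once in both libraries. Cells were called cycling without any of the 40 genes, when they held at least 4 unique molecular identifiers (UMIs, counted transcripts) summed over Mki67, Top2a, Birc5, Cdk1, Ccna2 and Ube2c. The data are 2 droplet single-cell RNA libraries, 1 per sort, made from the lungs of C57BL/6 mice 8 to 10 weeks old after dispase digestion. One library held conventional dendritic cells type 2 (cDC2), sorted on CD172a, and the other type 1 (cDC1), sorted on XCR1. The number of mice pooled is not stated in the labels, so library, sort and animals cannot be told apart. With 1 library per sort no test was possible: each value has a 95% counting interval, and a difference of 2-fold or more is a rule of size.

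Cells copy their genome once per division. A helicase built of the MCM proteins is loaded on origins in G1, switched on by Cdc45 and the GINS complex at the start of S phase, and followed by polymerases that ride on the PCNA clamp, while nucleotide synthesis and histone supply keep pace. Many of these genes are known targets of E2F transcription factors, which RB proteins hold back in resting cells, and conventional dendritic cells are known to keep dividing in tissues after they arrive from the blood as precursors.

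After filtering, the cDC2 library held 2835 cells and the cDC1 library 2574, of which 420 (14.8%, 13.5 to 16.2) and 379 (14.7%, 13.4 to 16.2) were cycling. Near the limit, 125 cells (cDC2) and 134 cells (cDC1) had 4 to 7 UMIs of the rule's genes, against 401 and 382 with 2 or 3. Summed UMIs came to 8206207 in cycling and 30407486 in other cells of the cDC2 library, and to 7140074 and 27931787 in the cDC1 library. Cycling cells were deeper, with median totals of 19165 UMIs against 12090 in the other cells of the cDC2 library, and 18713 against 12460 in the cDC1 library. Each library carried the markers of its label: the summed level of 8 cDC2 markers was 2489 CPM (UMIs of a gene scaled to a total of 1000000) in cycling and 3099 CPM in other cells of the cDC2 library, and the 8 cDC1 markers reached 2486 and 2541 CPM in the cDC1 library, with no marker at 0. These sums do not compare a marker list between the libraries. The genes of the cycling rule were not level between the libraries. Cdk1 had 46.2 CPM in cycling and 1.71 CPM in other cells of the cDC2 library, against 101 and 8.66 CPM in the cDC1 library. Every other gene of the rule was higher in cycling cells of the cDC2 library. The part of this in the cycling shares and in the comparisons between libraries was not tested. Cells with markers of another type made up 12.6% of cycling and 12.7% of other cells in the cDC2 library. The shares were 7.65% of cycling and 6.92% of other cells in the cDC1 library. A natural killer list of 5 genes stood at 66.5 CPM in cycling cDC2-library cells, of which Gzma gave 55.4 CPM and Eomes 0, against 3.81 CPM in the other cells, and at 0.140 CPM in cycling against 18.5 CPM in other cells of the cDC1 library. A neutrophil list stood at 10.6 CPM in cycling and 525 CPM in other cells of the cDC2 library. The part of such cells in the results was not tested beyond leaving them out. Values without such cells are given where a result changed. In all, 5 barcodes occurred in both libraries. Of the members, 8 overlap a gene on the other strand (Mcm7, Fen1, Gins2, Rfc2, Ccne2, Cdc45, Ubr7 and Dscc1), and the labels do not state whether the counting used strand.

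All 40 genes were higher in cycling than in other cells of both libraries. Their summed level was 1404 CPM in cycling cells against 405 CPM in other cells of the cDC2 library, a ratio of 3.47 (3.38 to 3.56). In the cDC1 library it was 1717 CPM against 384 CPM, a ratio of 4.47 (4.35 to 4.58). Of the members measured at 10 CPM or more in either class, 28 of 31 (cDC2 library) and 33 of 36 (cDC1 library) were at least 2-fold higher in cycling cells and none was 2-fold lower. Among all measured genes the share 2-fold higher was 5.65% in the cDC2 library, against 6.08% in the cDC1 library. Only 13 members of the cDC2 library and 10 of the cDC1 library reached 10 CPM in other cells. The rest of the measured members passed the minimum through cycling cells alone, where they were higher, so the minimum favours their call. The median member was 5.24-fold (cDC2 library) and 6.34-fold (cDC1 library) higher, while the median measured gene had ratios of 1.09 and 1.12. Scaling by the median ratio of all genes instead of the total would lower every such ratio by a factor of 1.07 (cDC2 library) or 1.10 (cDC1 library), which turns no member's direction. Since the kit counts the ends of transcripts, gene length plays little part in CPM.

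**Figure D1:**
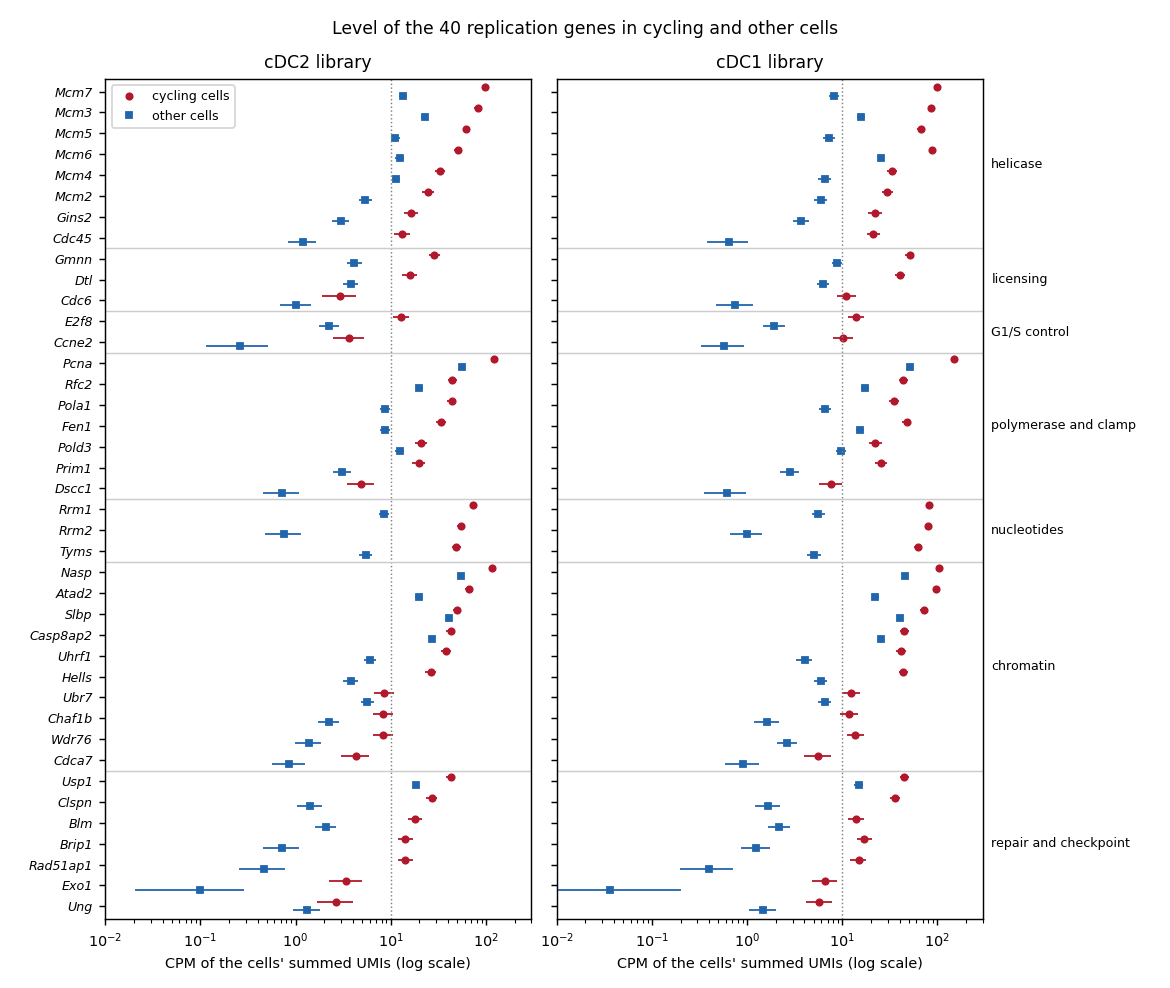
Level of each of the 40 genes in CPM (log axis) with its 95% Poisson interval, in cycling cells (red circles) and other cells (blue squares), grouped by role, with a dotted line at 10 CPM. Every red point lies to the right of its blue point, from the 1.21-fold gap of Slbp to the 73.0-fold gap of Rrm2 in the cDC2 library, and the interval of Exo1 in other cells of the cDC1 library runs past the left edge.

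All 8 helicase genes were at least 2-fold higher in cycling cells of both libraries, with ratios from 2.91 (Mcm4) to 11.1 (Cdc45) in the cDC2 library and from 3.45 (Mcm6) to 33.0 (Cdc45) in the cDC1 library. Mcm7, a subunit of the ring, had 97.6 CPM in cycling against 13.4 CPM in other cells of the cDC2 library, and 99.2 against 8.20 CPM in the cDC1 library. Mcm3 had 82.0 against 22.7 CPM in the cDC2 library and 85.6 against 15.8 CPM in the cDC1 library. Both genes were therefore at a like level in the cycling cells of both libraries, while the other cells of the cDC2 library held more of each. Mcm5 had 62.1 against 11.1 CPM in the cDC2 library and 66.9 against 7.27 CPM in the cDC1 library. Mcm4 had 33.1 against 11.4 CPM in the cDC2 library and 33.5 against 6.52 CPM in the cDC1 library. Mcm2 had 24.9 against 5.43 CPM in the cDC2 library and 29.8 against 5.91 CPM in the cDC1 library. Mcm6 ran the other way in the other cells, where the cDC1 library held more of it. It had 51.5 CPM in cycling and 12.4 CPM in other cells of the cDC2 library, against 87.4 CPM in cycling and 25.3 CPM in other cells of the cDC1 library. Cdc45, which joins the ring when it is switched on, had few UMIs outside the cycle, with 13.2 against 1.18 CPM in the cDC2 library and 21.3 against 0.644 CPM in the cDC1 library. Gins2, a subunit of the GINS complex, had 16.5 against 2.99 CPM in the cDC2 library and 22.1 against 3.72 CPM in the cDC1 library.

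Origin licensing genes ranged from sparse (Cdc6) to well counted (Gmnn). Cdc6, which loads the helicase, had 2.92 CPM in cycling and 1.02 CPM in other cells of the cDC2 library, on 24 and 31 UMIs. The cDC1 library had 11.1 CPM in cycling and 0.752 CPM in other cells. Its cycling-over-other ratio was thus 2.87 (1.61 to 5.05) in the cDC2 library, against 14.7 (9.0 to 25.1) in the cDC1 library. Dtl, the substrate receptor of a ubiquitin ligase that destroys the loading factor Cdt1, had 15.8 against 3.81 CPM in the cDC2 library and 40.6 against 6.27 CPM in the cDC1 library. Gmnn, which encodes geminin, the inhibitor of Cdt1, had 28.8 against 4.14 CPM in the cDC2 library and 51.0 against 8.88 CPM in the cDC1 library. The G1/S genes were Ccne2, a cyclin that activates CDK2, with 3.66 against 0.263 CPM in the cDC2 library and 10.2 against 0.573 CPM in the cDC1 library, and E2f8, a repressor of the E2F family, with 12.8 against 2.27 CPM in the cDC2 library and 14.0 against 1.93 CPM in the cDC1 library.

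Among the polymerase and clamp genes the spread was wide. Pcna, the sliding clamp, had the highest level of all members in cycling cells, 123 CPM against 56.6 CPM in other cells of the cDC2 library and 151 against 51.9 CPM in the cDC1 library. Its level in other cells was the highest of all members too, and its ratio was 2.17 (2.00 to 2.34) for cDC2 and 2.91 (2.69 to 3.15) for cDC1. Rfc2, a subunit of the loader that opens the clamp, had 44.4 against 19.9 CPM in the cDC2 library and 44.0 against 17.4 CPM in the cDC1 library. Pola1, the catalytic subunit of the priming polymerase, had 43.7 against 8.78 CPM in the cDC2 library and 35.0 against 6.66 CPM in the cDC1 library, and Prim1, its primase partner, 19.7 against 3.09 CPM in the cDC2 library and 25.6 against 2.79 CPM in the cDC1 library. Fen1, which trims the flaps of Okazaki fragments, had 34.0 against 8.78 CPM in the cDC2 library and 47.3 against 15.3 CPM in the cDC1 library. Pold3, an accessory subunit of polymerase delta, stayed under 2-fold in the cDC2 library with 21.0 against 12.4 CPM (1.69, 1.40 to 2.03) and passed it in the cDC1 library with 22.3 against 9.77 CPM (2.28, 1.86 to 2.78). Dscc1, of an alternative clamp loader, stayed under 10 CPM in all 4 classes, at 4.87 against 0.724 CPM in the cDC2 library and 7.56 against 0.609 CPM in the cDC1 library.

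Nucleotide synthesis gave the sharpest contrast of any well counted gene. Rrm2, the small subunit of ribonucleotide reductase, had 55.2 CPM in cycling against 0.756 CPM in other cells of the cDC2 library, a ratio of 73.0 (48.0 to 116) on 453 and 23 UMIs. The cDC1 library had 80.1 against 1.0 CPM, a ratio of 79.9 (54.7 to 121) on 572 and 28 UMIs. Rrm1, the large subunit of the same enzyme, was less restricted, with 73.6 against 8.58 CPM (8.58-fold) in the cDC2 library and 82.2 against 5.62 CPM (14.6-fold) in the cDC1 library. The subunits of this enzyme therefore had nearly equal CPM in cycling cells of the cDC1 library and differed by more than their intervals outside the cycle in both libraries. Tyms, thymidylate synthase, had 49.1 against 5.46 CPM (9.0-fold) in the cDC2 library and 62.2 against 5.01 CPM (12.4-fold) in the cDC1 library.

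The chromatin genes held both restricted and unrestricted members. Nasp, a histone chaperone, had 116 CPM in cycling and 55.1 CPM in other cells of the cDC2 library, and 104 and 45.1 CPM in the cDC1 library, a ratio of 2.11 (cDC2) and 2.31 (cDC1). Atad2, a bromodomain ATPase, had 65.8 against 19.6 CPM (3.35-fold) in the cDC2 library and 97.5 against 22.3 CPM (4.38-fold) in the cDC1 library. Uhrf1, which brings the maintenance methyltransferase to new DNA, had 38.0 against 6.02 CPM in the cDC2 library and 41.6 against 4.01 CPM in the cDC1 library, and Hells, a chromatin remodeller, 26.4 against 3.81 CPM in the cDC2 library and 44.0 against 5.91 CPM in the cDC1 library. The remaining 4 were sparse: Chaf1b, a subunit of chromatin assembly factor, had 8.29 against 2.24 CPM in the cDC2 library and 11.9 against 1.61 CPM in the cDC1 library, Wdr76 8.29 against 1.38 CPM in the cDC2 library and 13.7 against 2.65 CPM in the cDC1 library, Ubr7 8.53 against 5.69 CPM in the cDC2 library and 12.5 against 6.52 CPM in the cDC1 library, and Cdca7, a partner of Hells, 4.27 against 0.855 CPM in the cDC2 library and 5.60 against 0.895 CPM in the cDC1 library. Slbp and Casp8ap2, which act on histone messages, are described with the genes expressed outside the cycle.

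The 7 repair and checkpoint genes had a median ratio of 19.1 in the cDC2 library, the highest of the roles there, and 13.6 in the cDC1 library, where the 3 nucleotide genes had 14.6. Clspn, the checkpoint adaptor claspin, had 27.1 against 1.41 CPM (19.1-fold, 13.8 to 27.2) in the cDC2 library and 35.9 against 1.65 CPM (21.8-fold, 15.9 to 30.5) in the cDC1 library. Rad51ap1, which takes part in homologous recombination, had 14.3 against 0.460 CPM (31-fold, 17.7 to 58.4) in the cDC2 library and 14.8 against 0.394 CPM (37.7-fold, 20.2 to 77.8) in the cDC1 library. Brip1, a helicase that binds BRCA1, had 14.3 against 0.724 CPM (19.7-fold, 12.4 to 32.6) in the cDC2 library and 17.1 against 1.25 CPM (13.6-fold, 9.30 to 20.5) in the cDC1 library. Exo1, an exonuclease, rested on 28 UMIs in cycling and 3 in other cells of the cDC2 library and on 47 and 1 in the cDC1 library, so its ratios of 34.6 (10.7 to 178) for cDC2 and 184 (31.4 to 7415) for cDC1 are poorly fixed. Blm, a helicase that undoes recombination intermediates, had 18.2 against 2.07 CPM in the cDC2 library and 14.0 against 2.18 CPM in the cDC1 library. Usp1, a deubiquitinase that acts on PCNA, had a lower ratio, with 42.8 against 18.4 CPM (2.32-fold) in the cDC2 library and 44.8 against 14.8 CPM (3.02-fold) in the cDC1 library. Ung, which removes uracil from DNA, had 2.68 against 1.32 CPM (2.04-fold, the lowest of the role) in the cDC2 library and 5.74 against 1.47 CPM (3.91-fold) in the cDC1 library, under 10 CPM in all 4 classes. In all, 7 members were at least 10-fold higher in cycling cells of the cDC2 library (Rrm2, Rad51ap1, Ccne2, Cdc45, Exo1, Clspn and Brip1), and those 7 were among the 13 that were so in the cDC1 library. This count used no minimum level. Ccne2 and Exo1 were under 10 CPM in both classes of the cDC2 library, as were Exo1 and Dscc1 in the cDC1 library. The share of all genes at 10-fold was not counted, so the overlap is description only.

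The promoters of the members were read for letters that E2F proteins are known to bind. The RefSeq table (GRCm38.p6, 250 bases before to 50 after each start) held 31 of the 40 members. One of TTTCCCGC, TTTGGCGC and TTTCGCGC, on either strand, occurred in 14 of those 31 (45.2%), against 573 of 27025 genes with a promoter (2.12%), and CCAAT occurred in 22 of 31 (71.0%) against 41.1% of all. The genes with a match included weakly cycle-bound ones (Casp8ap2, Pold3) as well as Cdc6 (2.87-fold in the cDC2 library, 14.7-fold in the cDC1 library). Rrm2, the most cycle-bound well counted gene, had CCAAT but none of the E2F letters. The 6 upstream stretches shown are those of the members that mark the patterns described here: Mcm6 (which differed between libraries outside the cycle) and Mcm5 (a ring partner that did not follow it), Dtl (which differed between libraries in cycling cells), Rrm2 (the most confined to cycling cells of the well counted genes) and Slbp and Casp8ap2 (the least). Each is the 250 bases before the start on the gene's strand, 5′ to 3′, with E2F letters in capitals and with build and strand in the next sentence. They lie in GRCm38.p6 at chr1:128359706-128359955 (minus strand), chr8:75109259-75109508 (plus), chr1:191575545-191575794 (minus), chr12:24708004-24708253 (plus), chr5:33652575-33652824 (minus) and chr4:32615220-32615469 (plus).
Mcm6: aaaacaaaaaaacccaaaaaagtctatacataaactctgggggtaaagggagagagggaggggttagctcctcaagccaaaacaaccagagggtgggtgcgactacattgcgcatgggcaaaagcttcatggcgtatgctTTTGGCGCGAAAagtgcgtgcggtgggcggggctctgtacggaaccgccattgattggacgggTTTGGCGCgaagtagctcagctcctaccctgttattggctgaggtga
Mcm5: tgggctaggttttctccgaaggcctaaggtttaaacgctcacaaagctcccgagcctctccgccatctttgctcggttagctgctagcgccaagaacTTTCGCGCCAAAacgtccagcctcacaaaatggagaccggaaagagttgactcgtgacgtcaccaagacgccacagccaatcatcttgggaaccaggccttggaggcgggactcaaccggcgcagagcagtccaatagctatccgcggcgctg
Dtl: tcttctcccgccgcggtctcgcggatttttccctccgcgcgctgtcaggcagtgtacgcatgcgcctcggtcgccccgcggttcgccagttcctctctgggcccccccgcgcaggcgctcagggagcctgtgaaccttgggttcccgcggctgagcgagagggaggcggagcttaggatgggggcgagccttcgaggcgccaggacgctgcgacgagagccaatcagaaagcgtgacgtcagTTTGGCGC
Rrm2: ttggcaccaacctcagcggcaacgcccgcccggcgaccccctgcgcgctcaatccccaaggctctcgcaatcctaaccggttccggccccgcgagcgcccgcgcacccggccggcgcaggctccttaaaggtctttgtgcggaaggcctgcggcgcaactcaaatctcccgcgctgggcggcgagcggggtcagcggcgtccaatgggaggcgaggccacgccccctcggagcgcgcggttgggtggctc
Slbp: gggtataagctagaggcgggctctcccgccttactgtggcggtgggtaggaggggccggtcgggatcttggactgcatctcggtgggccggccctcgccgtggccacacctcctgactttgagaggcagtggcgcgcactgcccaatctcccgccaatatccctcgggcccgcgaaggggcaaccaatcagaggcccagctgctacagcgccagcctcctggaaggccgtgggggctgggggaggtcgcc
Casp8ap2: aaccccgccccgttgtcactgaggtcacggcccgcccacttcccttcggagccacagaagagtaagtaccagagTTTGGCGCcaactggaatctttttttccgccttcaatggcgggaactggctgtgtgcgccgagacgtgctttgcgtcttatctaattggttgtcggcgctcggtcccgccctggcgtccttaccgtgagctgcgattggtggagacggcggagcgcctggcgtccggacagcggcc
In Mcm6 the matches begin 110, 106 and 47 bases before the start, and the first 2 overlap. In Mcm5 overlapping matches begin 153 and 149 bases before the start. Dtl has its match 8 bases and Casp8ap2 176 bases before the start. A match is a description of the sequence, and no binding was measured.

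Some members were expressed outside the cycle. Taking 10 CPM or more in other cells and a ratio under 2 as the limits, Slbp and Casp8ap2 qualified in both libraries and Pold3 in the cDC2 library only. The share of all genes that met both limits was not counted, so this is description only. Of all measured genes 5.65% (cDC2 library) and 6.08% (cDC1 library) were 2-fold higher in cycling cells, so a ratio under 2 is usual. Slbp, which binds the stem-loop of histone messages, had 50.1 CPM in cycling and 41.4 CPM in other cells of the cDC2 library, a ratio of 1.21 (1.08 to 1.35). In the cDC1 library it had 71.6 and 39.99 CPM, a ratio of 1.79 (1.61 to 1.99). Its level in other cells was thus alike in both libraries (cDC2 over cDC1 1.04, 0.954 to 1.12), and the gap between libraries lay in the cycling cells. With cells thinned to 2000 UMIs and called cycling on 1 UMI of the rule's genes, the ratio of Slbp in the cDC2 library turned to 0.921. Casp8ap2, a factor for the processing of histone messages, had 42.5 against 27.1 CPM (1.57, 1.38 to 1.78) in the cDC2 library and 44.8 against 25.6 CPM (1.75, 1.53 to 2.0) in the cDC1 library. Between the libraries its level differed by less than counting error in cycling cells (cDC2 over cDC1 0.949, 0.813 to 1.11) and in other cells (1.06, 0.958 to 1.17).

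The other cells were split further to see how far these levels depended on cells just under the limit. The cells without any UMI of the rule's genes came to 1389 in the cDC2 library, against 1252 in the cDC1 library. There Slbp stood at 43.3 CPM in the cDC2 library, against 37.7 CPM in the cDC1 library, Pcna at 56.3 and 50.8 CPM, Nasp at 52.5 and 42.7 CPM and Casp8ap2 at 28.5 and 27.6 CPM. Mature dendritic cells, which carry the actin bundler Fscn1 and are known mostly to be out of the cycle, were 76 cells of the cDC2 library and 100 of the cDC1 library with at least 4 UMIs of Fscn1, Cacnb3, Nudt17 and H2-M2. A further 8 (cDC2) and 6 (cDC1) cells with as many of these UMIs also met the cycling rule and were counted as cycling, so the mature class holds no cycling cell by definition. In mature cells Pcna had 54.9 CPM in the cDC2 library, against 48.6 CPM in the cDC1 library, Slbp 46.4 and 45.6 CPM, Nasp 35.9 and 26.2 CPM and Casp8ap2 20.1 and 18.7 CPM. These mature levels rest on 44 to 65 UMIs for Pcna and Slbp, and their intervals (41.0 to 72.0 CPM for Pcna and 33.7 to 62.3 CPM for Slbp in the cDC2 library, 37.5 to 61.9 and 34.9 to 58.6 CPM in the cDC1 library) held the levels of all other cells. Rrm2 was at 0 UMIs in the mature cells of both libraries, where 3 counts allow up to 3.17 CPM (cDC2 library) and 2.24 CPM (cDC1 library). The summed level of the 40 genes was 374 CPM in mature cells against 367 CPM in cells of the cDC2 library with no rule UMI and no marker of maturity or another type, and 321 against 350 CPM in the cDC1 library. Single members could differ between these classes. Nasp was lower in mature cells of the cDC2 library (0.682, 0.468 to 0.962) and of the cDC1 library (0.609, 0.420 to 0.857). In the cDC1 library Uhrf1 was higher in mature cells (11.2 against 2.93 CPM, 3.82, 1.96 to 7.07) and Mcm6 lower (0.525, 0.302 to 0.854). In other cells 13 members of the cDC2 library and 10 of the cDC1 library reached 10 CPM. As many had most of their UMIs there, but these were not all the same genes. The share of all genes at 10 CPM in other cells was not counted. In the cDC2 library Mcm5, Mcm6 and Mcm7 reached 10 CPM with 39.9%, 47.2% and 33.7% of their UMIs in other cells. Other cells held 30407486 of 38613693 UMIs of the cDC2 library and 27931787 of 35071861 of the cDC1 library. Having most UMIs there is therefore no sign of a higher level.

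Shares of cells were compared at equal depth. With each cell thinned to 2000 UMIs, 80.2% of cycling and 50.7% of other cells of the cDC2 library held at least 1 UMI of the 40 genes, and 75.7% and 49.7% in the cDC1 library. Mature cells had shares of 47.4% (cDC2 library) and 47.0% (cDC1 library), at median depths of 10614 and 12404 UMIs. These shares were close to those of all other cells. Whether 1 UMI of the 40 genes is a sign of S phase was not tested, since the mature class holds no cycling cell by definition. At 3 UMIs the shares were 40.3% of cycling, 6.66% of other and 2.63% of mature cells in the cDC2 library. They were 41.8%, 5.66% and 6.00% in the same classes of the cDC1 library. Without thinning, 99.5% of cycling and 95.1% of other cells of the cDC2 library held at least 1 UMI, and 98.9% and 96.0% in the cDC1 library. After thinning, Rrm2 was seen in 8.83% of cycling and 0.166% of other cells of the cDC2 library and in 15.6% and 0.183% in the cDC1 library, while it was seen in 36.9% and 38.8% of cycling cells unthinned. Slbp, by contrast, was seen in 9.07% of cycling and 8.15% of other cells of the cDC2 library at 2000 UMIs, and in 10.8% and 8.41% in the cDC1 library.

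Between the libraries, the cycling cells of the cDC2 library held less of most members. Their summed level was 1404 CPM against 1717 CPM in cycling cells of the cDC1 library, a ratio of 0.818 (0.797 to 0.839), while 20 mitotic genes outside the rule summed to 907.7 CPM in the cDC2 library, against 901 CPM in the cDC1 library. Of the 40 genes 36 had a ratio under 1. The interval lay under 1 for 22, over 1 for Pola1 and Nasp, and held 1 for 16. The share of all genes with a ratio or an interval under 1 was not counted, so these counts are description only. By the rule of 2-fold, 3 of 36 measured members were lower in the cDC2 library and none higher, against 5.20% lower and 7.03% higher among all 7040 genes measured. These 3 were Cdc6 with 2.92 against 11.1 CPM (0.264, 0.160 to 0.422), Ccne2 with 3.66 against 10.2 CPM (0.358, 0.226 to 0.554) and Dtl with 15.8 against 40.6 CPM (0.390, 0.315 to 0.481). Cdc6 and Ccne2 counted as measured only through the cDC1 library, where they were higher, so the minimum level favours their call. Dtl reached 10 CPM in both libraries. The share of members that were lower (3 of 36) is near that of all genes, and E2f8, which like Ccne2 belongs to G1/S control, was at 0.914. Of the origin licensing list that holds no member, none of 7 measured genes was 2-fold apart, the lowest being Orc6 (0.589). Under 10 CPM in both libraries, Orc5 (0.435, 0.212 to 0.855) and Orc1 (0.489, 0.259 to 0.899) of that list were more than 2-fold lower. Orc3 (1.08, 0.772 to 1.52) and Mcm8 (1.32, 0.761 to 2.35), also under 10 CPM, had ratios over 1. Gmnn was the next measured member after Dtl at 28.8 against 51.0 CPM (0.564, 0.477 to 0.666). Ung, under 10 CPM in both, had 2.68 against 5.74 CPM (0.467, 0.265 to 0.802). Thinned to 2000 UMIs the ratio of Cdc6 was 0.715, and Cdc6 and Ccne2 were under the 10 CPM minimum when 2 UMIs sufficed for a cycling cell, with Dtl at 0.432.

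The remaining differences in cycling cells were smaller and not alike across roles. Mcm6 had 51.5 against 87.4 CPM (0.590, 0.520 to 0.668), the largest gap among the helicase genes, whereas Mcm4 (0.990, 0.829 to 1.18) and Mcm7 (0.984, 0.889 to 1.09) were level. Hells (0.601, 0.503 to 0.717), Atad2 (0.675, 0.602 to 0.756) and Rrm2 (0.689, 0.608 to 0.781) were lower in the cDC2 library, beyond counting error. Pola1, at 43.7 against 35.0 CPM (1.25, 1.06 to 1.47), and Nasp, at 116 against 104 CPM (1.11, 1.01 to 1.23), were the members higher in the cDC2 library beyond counting error. Rfc2 had a ratio of 1.01 (0.865 to 1.18), whose direction turns when the libraries are scaled by the median ratio.

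**Figure D2:**
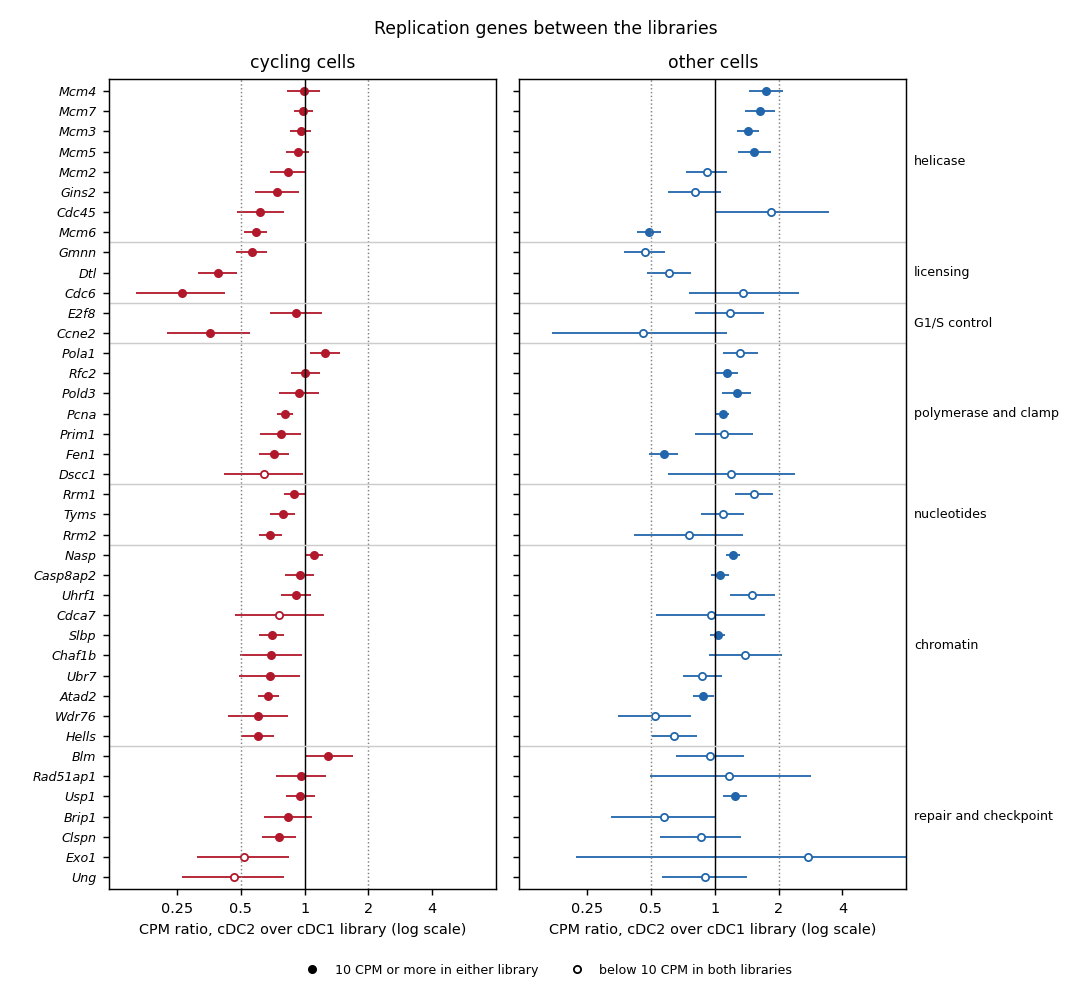
Ratio of each gene's CPM in the cDC2 library over the cDC1 library (log axis) with its 95% interval, in cycling cells (left) and other cells (right). Filled points reached 10 CPM in either library, and dotted lines mark 2-fold. In cycling cells 36 of 40 points lie under 1, with Cdc6, Ccne2 and Dtl farthest left, while in other cells Mcm3, Mcm4, Mcm5 and Mcm7 lie over 1 and Mcm6 at 0.490, and the interval of Exo1 there runs past the right edge.

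Outside the cycle the libraries differed less in sum, and members went either way. The summed level was 405 CPM in other cells of the cDC2 library against 384 CPM in those of the cDC1 library, a ratio of 1.05 (1.03 to 1.08). Intervals lay over 1 for 13 members, under 1 for 7 and held 1 for 20. Here too the share of all genes with such intervals was not counted. By the rule of 2-fold, 1 of 14 measured members was 2-fold lower and none 2-fold higher, against 5.58% lower and 8.22% higher among all 6447 genes measured. That gene was Mcm6 (ENSMUSG00000026355, chr1:128331590-128359664 in GRCm38, minus strand), with 12.4 against 25.3 CPM (0.490, 0.432 to 0.556) on 378 and 708 UMIs. Mcm4, Mcm7, Mcm5 and Mcm3 went the other way. Mcm4 had 11.4 against 6.52 CPM (1.75, 1.46 to 2.10), Mcm7 13.4 against 8.20 CPM (1.64, 1.39 to 1.93), Mcm5 11.1 against 7.27 CPM (1.53, 1.29 to 1.83) and Mcm3 22.7 against 15.8 CPM (1.43, 1.27 to 1.62). Mcm2 did not differ beyond counting error, at 5.43 against 5.91 CPM (0.919, 0.736 to 1.15). Fen1 had 8.78 against 15.3 CPM (0.574, 0.491 to 0.671), and Gmnn, below 10 CPM in both, 4.14 against 8.88 CPM (0.467, 0.374 to 0.581). The call on Mcm6 rests at the edge of the rule, since its ratio was 0.507 without cells that carry markers of another type and 0.503 without the deepest cells.

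Mcm6 was also expressed as a share of the ring transcripts, which needs no scaling between libraries. This share rests on the same Mcm6 UMIs, so it is no separate support. Its total also holds Mcm3, Mcm4, Mcm5 and Mcm7, which were higher in other cells of the cDC2 library and widen the gap in share there. Mcm6 gave 16.3% (14.8 to 17.8) of the summed UMIs of Mcm2 to Mcm7 in other cells of the cDC2 library and 36.7% (34.5 to 38.9) in other cells of the cDC1 library. In cycling cells its share was 14.7% (13.4 to 16) for cDC2 and 21.7% (20.2 to 23.3) for cDC1. In cells with no UMI of the rule's genes it was 16.6% (14.4 to 19.1) for cDC2 and 41.9% (38.6 to 45.3) for cDC1, so the gap between libraries was no smaller in the cells farthest from the cycling limit. Without mature cells and cells with markers of another type among these, Mcm6 had 10.2 CPM in the cDC2 library against 24.2 CPM in the cDC1 library (0.424, 0.345 to 0.518). In mature cells the level was 13.7 against 12.7 CPM (1.08, 0.482 to 2.36) on 13 and 17 UMIs, an interval that holds both equal levels and a 2-fold gap. Mcm3 led the ring transcripts in other cells of the cDC2 library with 29.6% (27.8 to 31.5), against 22.9% (21.1 to 24.9) in those of the cDC1 library.

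**Figure D3:**
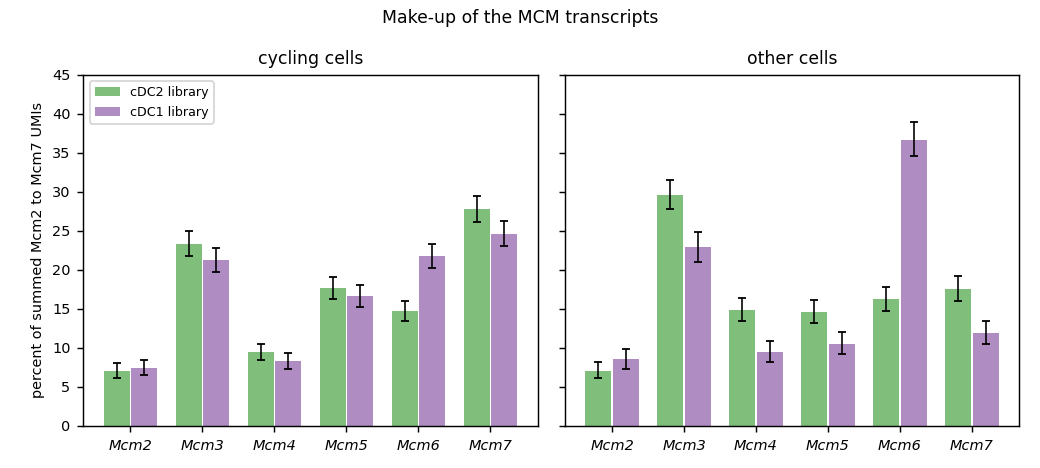
Share of each gene in the summed UMIs of Mcm2 to Mcm7, in percent, in cycling cells (left) and other cells (right) of the cDC2 library (green) and the cDC1 library (purple), with 95% binomial intervals. The shares of the libraries are farthest apart for Mcm6, with 16.3% in other cells of the cDC2 library against 36.7% in those of the cDC1 library.

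The cycling cells of each library were then ordered by the CPM of the 20 mitotic genes, none of which is a member or in the rule, and divided in 3 ranges of equal size (140 cells each for cDC2; 127, 126 and 126 for cDC1). From low to high, the summed level of the 40 genes was 961, 1483 and 1744 CPM in the cDC2 library. Likewise it was 765, 1998 and 2171 CPM in the cDC1 library. The median cell also grew deeper, with 16657.5, 19885 and 20561 UMIs in the cDC2 library and 14659, 19694 and 20885 UMIs in the cDC1 library, and the part of depth in these differences was not tested. Cells with the highest mitotic levels held the most replication transcripts in both libraries, with most of the increase between the lowest and the middle range. The lowest range lay near the cycling limit, with a median of 5 UMIs of the rule's genes in each library. The middle and highest ranges had 23 and 46 in the cDC2 library and 13 and 45 in the cDC1 library. In the cDC1 library the mitotic genes summed to 30.9 CPM in the lowest range, under the 43.2 CPM of its other cells. The ratios of highest over lowest thus also set cells near the limit against cells far above it. A member was 2-fold higher in the highest than in the lowest range in 17 of 33 measured cases in the cDC2 library, where 10.0% of all genes were, and in 30 of 35 in the cDC1 library, where 15.0% were. Scaling by the median ratio would lower these ratios by a factor of 1.12 and 1.18. Some members reached 10 CPM in the highest but not in the lowest range, so the minimum favours their call.

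Members differed in how far they followed the mitotic genes. Rrm2 had 13.7, 53.0 and 96.6 CPM from the lowest to the highest range of the cDC2 library and 6.47, 76.7 and 138 CPM in the cDC1 library, a ratio of 7.03 (4.95 to 10.3) and 21.4 (12.4 to 40.5) between highest and lowest. Clspn (3.95 in cDC2, 10.5 in cDC1), E2f8 (4.72 in cDC2, 7.6 in cDC1), Atad2 (3.94 in cDC2, 7.15 in cDC1), Rrm1 (3.53 in cDC2, 7.72 in cDC1), Brip1 (3.54 in cDC2, 9.62 in cDC1), Gmnn (3.98 in cDC2, 3.48 in cDC1) and Rad51ap1 (4.11 in cDC2, 3.06 in cDC1) were at least 3-fold higher in both libraries. Blm and Usp1 were at least 3-fold higher in both libraries too. Blm had 23.8 CPM in the highest against 7.25 CPM in the lowest range of the cDC2 library and 18.3 against 2.49 CPM in the cDC1 library. Usp1 had 71.3 against 23.7 CPM in the cDC2 library and 67.2 against 15.4 CPM in the cDC1 library. Cdc6 had ratios of 5.19 (1.13 to 48.2) in the cDC2 library, on 11 and 2 UMIs, and 7.49 (2.71 to 28.8) in the cDC1 library. Ring genes of the cDC2 library had low ratios, with none of 6 at 2-fold, while 4 of 6 in the cDC1 library reached it (Mcm2, Mcm4, Mcm5 and Mcm7). Mcm6 had 46.5 CPM in the highest and 51.1 CPM in the lowest range of the cDC2 library (0.909, 0.708 to 1.17) and 84.0 against 56.8 CPM in the cDC1 library (1.48, 1.18 to 1.87). Mcm2 was equal in the cDC2 library (1.0, 0.706 to 1.42) and 2.15-fold higher in the cDC1 library, and Mcm4 was at 0.955 (0.700 to 1.30) in the cDC2 library, against 2.47 (1.64 to 3.81) in the cDC1 library. Mcm5 had 1.42 in the cDC2 library, against 2.17 in the cDC1 library, Mcm7 1.67 and 2.01, and Mcm3 1.08 and 1.85. With median-ratio scaling the ratios of Mcm2, Mcm3, Hells, Exo1 and Chaf1b in the cDC2 library, all between 1.0 and 1.12, are under 1. Cdca7 and Ung were the members with a ratio under 1 in both libraries, on at most 20 UMIs a range. Cdca7 had 0.378 (0.144 to 0.895) in the cDC2 library, against 0.674 (0.242 to 1.85) in the cDC1 library, and Ung 0.472 (0.145 to 1.36) and 0.856 (0.271 to 2.77).

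**Figure D4:**
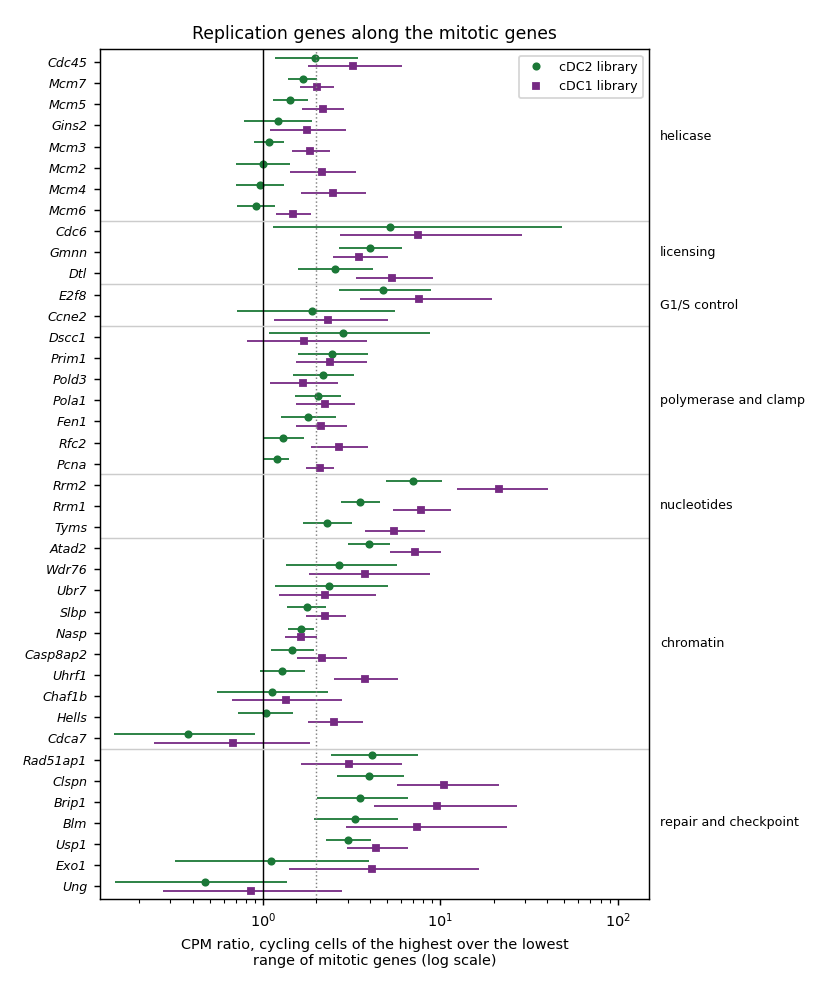
Ratio of each gene's CPM in the cycling cells of the highest over the lowest range of mitotic genes (log axis) with its 95% interval, in the cDC2 library (green circles) and the cDC1 library (purple squares), with a dotted line at 2-fold. Rrm2 lies farthest right at 7.03 and 21.4, the ring genes of the cDC2 library lie from 0.909 (Mcm6) to 1.67 (Mcm7), and Cdca7 and Ung lie under 1 in both libraries.

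The genes of the cycling rule are known to peak late in the cycle, so cells with S-phase transcripts under its limit were counted as well. A core list of 11 members (Mcm5, Rrm2, Tyms, Cdc45, Cdc6, Gins2, Dtl, Clspn, Uhrf1, Ccne2 and Exo1) at 4 UMIs or more was found in 203 of 420 cycling cells and 42 of 2415 other cells (1.74%, 1.26 to 2.34) of the cDC2 library. In the cDC1 library it was found in 197 of 379 cycling cells and 36 of 2195 other cells (1.64%, 1.15 to 2.26). Among mature cells, 1 of 76 in the cDC2 library and 1 of 100 in the cDC1 library met this limit. Of the cells outside the rule, 7 (cDC2 library) and 10 (cDC1 library) had no UMI of the rule's genes at all. Their median depth was 16635 UMIs in the cDC2 library, against 18061.5 UMIs in the cDC1 library, above the 12090 and 12460 UMIs of all other cells, and the part of depth was not tested.

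These cells outside the rule were set against cycling cells of the same core limit in the members that had not chosen them. The limit did not match the classes in level. The 11 core genes summed to 358 CPM outside the rule and 497 CPM in cycling core cells of the cDC2 library. In the cDC1 library they summed to 373 and 649 CPM, and the part of this difference in the ratios below was not tested. Over the 29 members outside the core list, the median ratio of cells outside the rule over cycling cells was 0.762 in the cDC2 library, against 0.621 in the cDC1 library. In the cDC2 library 1 of 28 measured members was 2-fold higher (Ung) and 7 were 2-fold lower, against 2.29% and 8.02% of all genes. In the cDC1 library none of 29 was 2-fold higher and 11 were lower, against 2.36% and 9.51%. Rrm1, at 33.6 against 119 CPM (0.282, 0.181 to 0.421) in the cDC2 library and 31.5 against 127 CPM (0.247, 0.149 to 0.385) in the cDC1 library, was among the lower ones in both, as were Rad51ap1, Atad2, Blm, Brip1 and E2f8. E2f8 had 0 UMIs outside the rule against 89 in cycling cells of the cDC2 library, and 2 against 92 in the cDC1 library. Of the ring genes outside the core list, Mcm6 had 115 against 83 CPM (1.39, 1.09 to 1.76) in the cDC2 library and 146 against 133 CPM (1.10, 0.875 to 1.37) in the cDC1 library. Mcm2 had 60.4 against 38.4 CPM (1.57, 1.11 to 2.20) in the cDC2 library and 56.6 against 45.5 CPM (1.24, 0.846 to 1.78) in the cDC1 library. Mcm7 was lower outside the rule, at 129 against 164 CPM (0.787, 0.629 to 0.975) in the cDC2 library and 110.1 against 157 CPM (0.702, 0.541 to 0.899) in the cDC1 library. Ung had 14.8 against 4.44 CPM (3.32, 1.43 to 7.35) on 11 and 19 UMIs in the cDC2 library, and 15.7 against 9.77 CPM (1.61, 0.719 to 3.27) in the cDC1 library. The 20 mitotic genes summed to 98 CPM in these cells of the cDC2 library, against 1102 CPM in its cycling core cells and 37.4 CPM in all its other cells. In the cDC1 library they summed to 81.8, 1151 and 43.2 CPM in the same classes.

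**Figure D5:**
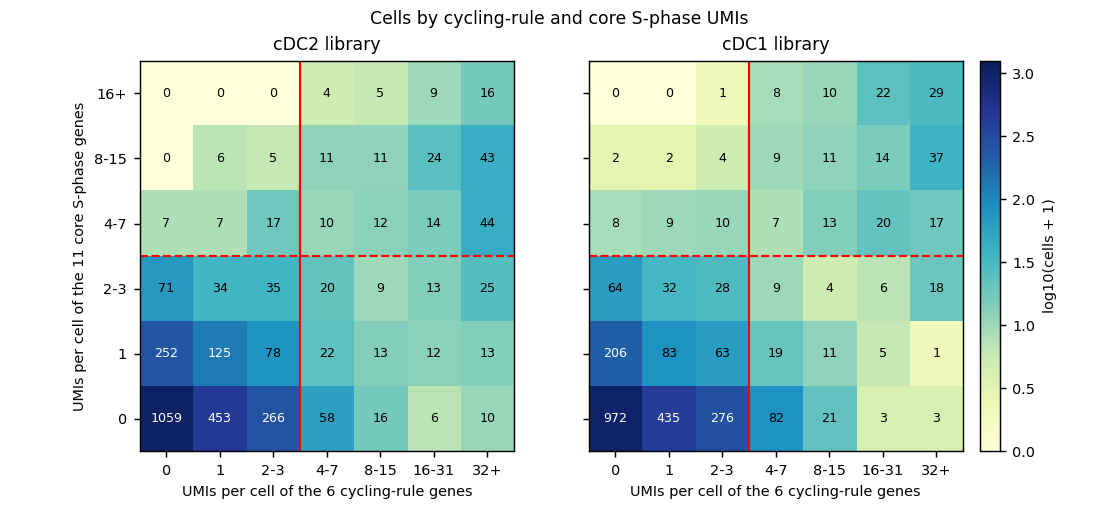
Number of cells by UMIs of the 6 cycling-rule genes (horizontal, with the limit of 4 as a solid line) and UMIs of the 11 core S-phase genes (vertical, with the limit of 4 as a dashed line) in each library, coloured by log10 of cells plus 1. The upper left field holds the 42 (cDC2 library) and 36 (cDC1 library) core cells outside the rule, against 203 and 197 core cells inside it.

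Other genes of the pathway, from lists that hold no member, were compared between cycling and other cells in the same way. Of the origin licensing list (11 genes), 2 of 5 measured were 2-fold higher in cycling cells of the cDC2 library and 3 of 7 in the cDC1 library, among them Orc6, a subunit of the origin recognition complex (5.61 in cDC2, 5.53 in cDC1). Mcm10, which helps to switch the helicase on, reached 61.0 (25.1 to 193) in the cDC1 library. Of 31 polymerase and fork genes, of which 30 were found, 19 of 25 (cDC2) and 20 of 26 (cDC1) were higher, among them Pole, the catalytic subunit of polymerase epsilon (12.6 in cDC2, 19.3 in cDC1), and Lig1, the replicative ligase (6.16 in cDC2, 8.14 in cDC1). Of 13 nucleotide genes 4 of 9 were higher in each library, among them Tk1 (7.57 in cDC2, 12.1 in cDC1), Dut and Dtymk. Samhd1, which breaks nucleotides down, was the measured nucleotide gene with the lowest ratio, 99.4 against 145.8 CPM (0.682, 0.632 to 0.735) in the cDC2 library and 77.0 against 99.9 CPM (0.771, 0.703 to 0.846) in the cDC1 library. Chromatin assembly genes were higher in 9 (cDC2) and 8 (cDC1) of 13, led by Asf1b (23.2 in cDC2, 23.7 in cDC1) and Chaf1a (11.1 in cDC2, 11.1 in cDC1). G1/S control genes were higher in only 7 of 22 (cDC2) and 10 of 24 (cDC1), among them Dbf4 (4.52 in cDC2, 4.79 in cDC1), the activator of the kinase that fires origins, Rbl1 (3.83 in cDC2, 5.82 in cDC1), a relative of RB, and E2f1 (3.51 in cDC2, 5.46 in cDC1), and repair genes in 4 of 7 (cDC2) and 6 of 8 (cDC1), among them Brca1 (22.7 in cDC2, 18.4 in cDC1). All measured mitotic genes were higher (17 of 17 and 18 of 18). None of these lists had a measured gene that was 2-fold lower in cycling cells. As with the members, genes that reached 10 CPM in cycling cells alone could not be lower there, so the minimum favours such calls.

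Timeless and Tipin, partners in the complex that protects the fork, did not go together. Timeless had 9.02 CPM in cycling against 1.91 CPM in other cells of the cDC2 library (4.73-fold). The cDC1 library had 69.2 against 74.9 CPM (0.924, 0.836 to 1.02), so its level there did not differ beyond counting error between cycling and other cells. Tipin had 37.7 against 7.20 CPM (5.23-fold) in the cDC2 library and 36.4 against 5.87 CPM (6.20-fold) in the cDC1 library. The ratio of the cDC2 over the cDC1 library was 0.130 in cycling and 0.0255 in other cells for Timeless, and 1.03 and 1.23 for Tipin.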

How the data were processed

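The deposited values are whole UMI counts per gene and cell, per the file headers. The authors used Cell Ranger 3.2 and the mm10 build, per the submitters' processing notes, while the matrix headers name software 3.0.2; Seurat is named there without a role. Cells with at least 500 genes and 1000 UMIs and at most 10% mitochondrial UMIs were kept, and doublets were left in. Counts were summed per class of cells and divided by the class total (CPM). Intervals at 95% are exact: Poisson for CPM, Clopper-Pearson for shares and conditional binomial for ratios. They cover counting error only, since cells of 1 library are not replicates. Genes at 10 CPM or more in either class counted as measured, and 2-fold was the rule of size. For shares, cells were thinned to 2000 UMIs, leaving out shallower ones (1 to 11 per class). Members at either extreme of each comparison got full values. Members and lists were chosen with earlier results of these data known. Gene positions are from GENCODE and promoters from RefSeq. Alternatives were other cycling limits, minimum levels, scalings and cell filters. Python 3.11.15, numpy 2.4.6, pandas 2.3.3 and scipy 1.17.1 were used, and the code was tested on simulated data.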

Additional observations from a re-analysis of the deposited data

Results flagged for a closer look

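Some genes had ratios on opposite sides of 1 in the libraries or in the classes of cells, and none of these differences could be tested with 1 library per sort. For Mcm4, Mcm6 and Timeless the interval of the ratio under 1 holds 1, so a turn of direction is not shown there. Mcm4 had a ratio of 0.955 (0.700 to 1.30) between cycling cells of the highest and the lowest mitotic range in the cDC2 library, against 2.47 (1.64 to 3.81) in the cDC1 library. Mcm6 had 0.909 (0.708 to 1.17) in the cDC2 library, against 1.48 (1.18 to 1.87) in the cDC1 library for the same ratio. Pcna was lower in the cDC2 than in the cDC1 library among cycling cells (0.812, 0.744 to 0.886) and higher among other cells (1.09, 1.02 to 1.17). Cdc45 showed the same turn, with 0.618 (0.479 to 0.796) in cycling and 1.84 (1.02 to 3.44) in other cells, where it rested on 36 UMIs in the cDC2 library, against 18 in the cDC1 library. Timeless, which is no member, had a ratio of cycling over other cells of 4.73 (3.31 to 6.79) in the cDC2 library, against 0.924 (0.836 to 1.02) in the cDC1 library.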

How the results depend on the processing

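No paired analysis was possible because each sort has 1 library and the labels carry no replicate numbers. Of the recomputed answers 78 stayed within counting error or 1.5 times and 40 shifted further. Using all deposited barcodes or at most 5% mitochondrial UMIs changed none beyond that. The causes of the 40 shifts were not tested. With cycling cells called at 2 UMIs, the summed ratio of cycling over other cells was 2.66 (cDC2 library) and 3.27 (cDC1 library), 29.0% and 29.6% of cells were cycling, 7 members of the cDC2 library counted as expressed outside the cycle, its other cells with the core list made up 0.993%, the libraries were 2-fold apart in cycling cells for 1 member, and their summed ratio was 0.858. At 8 UMIs the summed ratios were 3.62 and 4.81, cycling cells made up 10.4% and 9.52%, core cells outside the rule 2.64% and 2.58%, and the libraries' ratio in cycling cells was 0.777. Median-ratio scaling gave summed ratios of 3.23 and 4.06, and 1.02 between libraries in other cells. Without a minimum level 4 members were 2-fold apart in other cells. At 50 CPM, 9 members in the cDC2 library, against 11 in the cDC1 library were 2-fold higher in cycling cells, 0 and 0 were expressed outside the cycle, and 0 were apart between libraries in cycling and 0 in other cells. Without cells with markers of another type 0 were apart in other cells. Without cells above the 98th percentile of UMIs 0 were apart there, the summed ratio in the cDC2 library was 3.59 and that between libraries in cycling cells 0.854. Thinned to 2000 UMIs and with cycling called on 1 UMI, 17 members were 2-fold higher in the cDC2 library, summed ratios were 2.29 and 2.72, 8 and 6 members were expressed outside the cycle, cycling cells made up 20.4% and 20.1%, core cells outside the rule 6.32% and 5.65%, the libraries' ratio in cycling cells was 0.883, and 2 members were apart in other cells. There Slbp in the cDC2 library turned to 0.921 (0.656 to 1.27), an interval that holds 1. Of the recomputed values of named genes 13 more shifted beyond counting error and 96 did not. Depth limits the sparse members: Cdc6, Ccne2, Exo1, Dscc1, Cdca7, Ung, Wdr76 and Chaf1b rest on under 100 UMIs in each of the 4 classes.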
